A study of Drosophila melanogaster with 2 samples.

Results

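Promoter regions that ranked just below the reproducible set were taken from a chromatin immunoprecipitation experiment followed by sequencing (ChIP-seq) on Hmx-eGFP in Drosophila melanogaster embryos. They were found in the list of 30000 dm6 regions called on the pooled replicates. The regions were sorted by the signal value that the authors deposited, and the strongest 6000 were kept. The regions of the authors' optimal IDR set, which were the strongest of the list, were removed. IDR, the irreproducible discovery rate, ranks regions by how well replicates reproduce them. Of the 4393 regions left on the arms 2L, 2R, 3L, 3R, 4 and X, 1540 had a summit within 500 bp of an annotated transcript start. These 1540 regions are called members. They were chosen by measured values, namely the pooled signal and IDR status, and by distance to a start, and these values are given as description with no test. The regions were labelled as peaks and background, so some members may be background.

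The embryos were 0 to 24 h old, of pooled sexes, and came from 1 strain, Hmx-MiMIC-GFP, in which an eGFP exon placed in an intron of Hmx gives an Hmx-GFP fusion. Chromatin was sonicated, with a size range of 200 to 800 recorded without a unit. The sample description names an antibody against GFP, whereas the antibody field names Hmx. The 2 samples, biological replicates 2 and 3, formed 1 group with no second condition. Whole embryos mix all cell types, so a region bound in few cells and one bound weakly in many cannot be told apart. The control alignment was not analysed here, and the lists give no read counts, so the depth behind each value is unknown.

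Hmx encodes a homeodomain transcription factor of the NK class that is expressed in the developing nervous system, and many homeodomain proteins bind sites with a TAAT core. Promoters are stretches around a transcript's start where general factors and RNA polymerase assemble. In Drosophila, promoters of widely expressed genes often carry the DNA replication-related element (DRE, TATCGATA), bound by Dref and BEAF-32, or motif 1 (core GGTCACAC), bound by M1BP.

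The sequences below are single member summits with 50 bp on either side, read 5′ to 3′ along the strand of the nearest gene from the RefSeq copy of the dm6 assembly. The first set holds strong members with a DRE, in capitals, and the sequence around it, which had 23.8% G+C at CG8032, 44.6% at RpS12 and 21.8% at Cat. CG8032 is chr3R:8663975-8664075 on the + strand, RpS12 is chr3L:13023281-13023381 on the + strand and Cat is chr3L:18822479-18822579 on the + strand.
CG8032: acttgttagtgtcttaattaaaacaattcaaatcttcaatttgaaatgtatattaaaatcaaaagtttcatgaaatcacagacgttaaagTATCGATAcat
RpS12: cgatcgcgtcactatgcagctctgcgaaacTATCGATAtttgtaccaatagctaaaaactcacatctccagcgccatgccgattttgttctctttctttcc
Cat: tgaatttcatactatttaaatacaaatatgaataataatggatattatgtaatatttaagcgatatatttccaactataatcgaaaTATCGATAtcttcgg
The second set holds strong members with the motif 1 core, in capitals on either strand. CG4935 is chr2L:16262084-16262184 on the + strand, dos is chr3L:2589158-2589258 on the + strand and Fdh is chr3R:10872590-10872690 on the − strand.
CG4935: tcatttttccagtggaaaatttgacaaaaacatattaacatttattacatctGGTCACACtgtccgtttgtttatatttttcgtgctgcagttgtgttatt
dos: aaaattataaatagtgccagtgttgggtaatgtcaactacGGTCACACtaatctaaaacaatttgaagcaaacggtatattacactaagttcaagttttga
Fdh: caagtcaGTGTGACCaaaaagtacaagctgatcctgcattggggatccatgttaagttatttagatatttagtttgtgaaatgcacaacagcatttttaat
The third set holds strong members with the homeodomain site TAATTA, in capitals. CG10948 is chr3L:12850023-12850123 on the − strand, CG11999 is chr3R:5354854-5354954 on the − strand and Neurochondrin is chr3R:6468136-6468236 on the + strand.
CG10948: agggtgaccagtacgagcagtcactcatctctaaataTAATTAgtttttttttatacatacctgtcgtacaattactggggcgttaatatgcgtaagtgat
CG11999: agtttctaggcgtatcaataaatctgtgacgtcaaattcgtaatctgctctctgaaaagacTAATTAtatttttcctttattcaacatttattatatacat
Neurochondrin: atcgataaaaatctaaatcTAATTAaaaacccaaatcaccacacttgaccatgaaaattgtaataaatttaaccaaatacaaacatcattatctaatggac
The last is a strong member with none of these motifs, at Cyp28d2 (chr2L:5207191-5207291, + strand), with runs of 6 or more A or T in capitals.
Cyp28d2: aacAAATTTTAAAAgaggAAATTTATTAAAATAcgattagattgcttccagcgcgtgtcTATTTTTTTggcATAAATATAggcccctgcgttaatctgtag

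Members were by rule weaker than the IDR promoter regions, which ranked above them. Fewer members had a low q value, which is largely built in because the q value rose as signal fell. Member signal ran from 44.7 to 78.4 with a median of 55.4, against a median of 116.8 at the 958 IDR promoter regions. At the upper threshold the last IDR region had 78.409 and the next region 78.408, and at the lower threshold rank 6000 had 44.6728 and the next region 44.6713. The thresholds thus cut through a continuous range of signal. On either side of the upper one, the weakest IDR promoter regions lay at CG10638, Cds, Apc, CG5721 and Dhod, and the strongest members at CG10948, Cyp28d2, CG11999 and Neurochondrin. The weakest members lay at stac, CG8089, lncRNA:CR45278, FASN1 and CG5004, and the strongest promoter regions below rank 6000 at lncRNA:CR44632, lgs, CG6154, CG10958 and lncRNA:CR43715. At the edge of the promoter window, the members at Ogdh and CG13077 had summits 499 bp upstream of the start, whereas summits 501 bp upstream of CG3638 and 502 bp downstream of Spn31A were left out. The deposited q value was below 5% for 672 members, a share of 43.6%, against all 958 IDR promoter regions and 10.6% of all pooled regions on the arms. All 1540 members were 436 bp wide.

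The share of regions at promoters fell along the ranked list. It was 44.7% (95% Wilson interval 41.8 to 47.7%) at ranks 1608 to 2705 and 26.8% (24.2 to 29.4%) at ranks 4902 to 6000. In the IDR set it was 70.4% at ranks 1 to 400 and 53.8% from rank 1201 to its end. The plot of shares by rank shows this decrease. Wilson intervals here and below cover counting error only, and regions are not replicates.

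**Figure D1:**
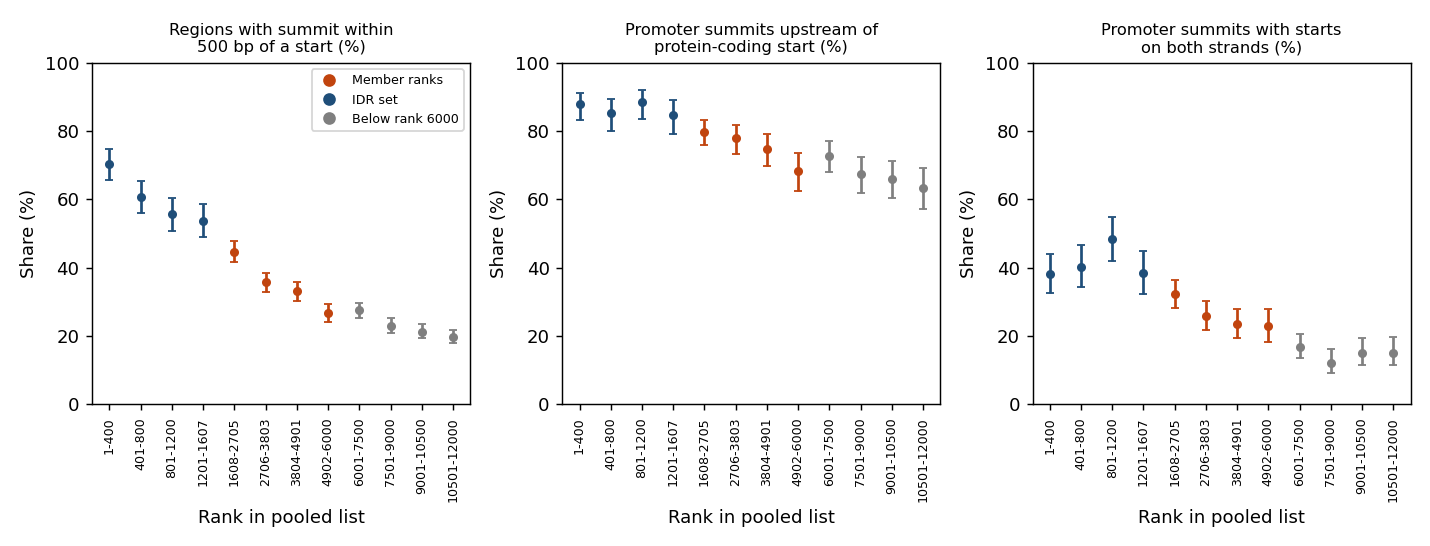
Share of regions with a summit within 500 bp of a start (left), share of promoter summits upstream of a protein-coding start (middle) and share with starts on both strands (right), in percent, by rank in the pooled list. Points are shares and bars 95% Wilson intervals. Orange marks the ranks that hold the members. Of all regions at these ranks, 44.7% were promoter regions at ranks 1608 to 2705 and 26.8% at ranks 4902 to 6000.

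The strongest members lay at genes of many functions. The region with the highest signal (78.4; 3L, 12849855 to 12850290) had its summit 44 bp downstream of the start of CG10948, with a start of Wbp2 also within 500 bp. Its signal was 37.926 in replicate 2 and 37.996 in replicate 3. Cyp28d2, a cytochrome P450 gene (2L, 5207023 to 5207458), had 78.4 with its summit 26 bp upstream, and 39.5 and 43.4 in replicates 2 and 3. In both the replicates gave similar signals on their own scales. Neurochondrin had 25.8 in replicate 2 and 53.1 in replicate 3, ranks 5530 and 782, so the replicates ranked it far apart. Regions within 500 bp of starts of 2 genes are called shared here. At CG8142, shared with the mitochondrial carrier gene Ucp4A, replicate 2 had 45.2 and no replicate 3 summit lay within 250 bp. Others among the 25 strongest were mop, which encodes a tyrosine phosphatase-like protein, Rox8, an RNA-binding protein gene, psidin, Kap3, a subunit of the motor kinesin-2, and clu, which acts on mitochondria. Further ones were cmet, a kinetochore kinesin gene, the chromatin gene Df31, the pigment gene p with CG8032, the germ cell gene gcl with CG14767, the riboflavin kinase gene Rfk, and dgrn, a ubiquitin ligase gene, with the SNARE gene Sec20.

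Most members had a summit in each replicate's own list. Replicate 2 had a summit within 250 bp of 1502 members (97.5%) and replicate 3 of 1419 (92.1%), and 1383 had both, 89.8% (88.2 to 91.2%). The same share was 96.3% at IDR promoter regions, 66.9% at promoter regions below rank 6000 and down to rank 12000, 92.9% at other regions of ranks 1608 to 6000 and 46.8% over all pooled regions on the arms. Both libraries went into the pooled list, so this support is partly built in. About 10.4% of arm bases lay within 250 bp of a replicate 2 summit and 10.6% of a replicate 3 summit. Support was 95.5% at ranks 1608 to 2705 and 79.9% at ranks 4902 to 6000. In 119 members the only summit came from replicate 2 and in 36 from replicate 3. The members at CG34396 (signal 53.0) and porin, a channel gene of the mitochondrial outer membrane (48.2), had neither.

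The replicates ranked members differently. The median rank of the matched region was 3983 in replicate 2 and 4377 in replicate 3, with median signals of 29.4 and 27.9. Among the 6000 strongest regions of a replicate were 1029 members (66.8%) in replicate 2 and 888 (57.7%) in replicate 3, but 510 (33.1%) in both. Only 10 members were among as many of the strongest regions of both replicates as the IDR set holds. The rule had removed the IDR set, the strongest regions of the pooled list, so a low count here is built in. Replicate 2 had the better rank at 841 members (54.6%) and replicate 3 at 697 (45.3%), where a member with a summit in 1 replicate counts for that replicate. Among the 1383 members with both, the counts were 722 for replicate 2 and 661 for replicate 3. Replicate 2 as a whole was richer in promoters, with 47.0% of its 6000 strongest regions at a start, against 35.9% in replicate 3. The part of this difference in the members' ranks was not tested.

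**Figure D2:**
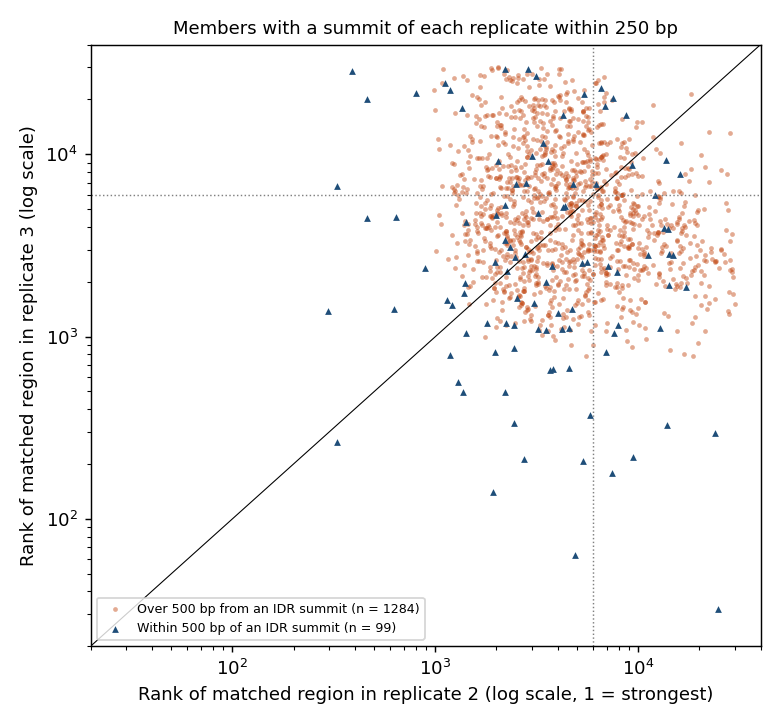
Rank of the nearest region within 250 bp in replicate 2 (horizontal, log scale) and replicate 3 (vertical, log scale) for the 1383 members with both, rank 1 being strongest. Dotted lines mark rank 6000, and blue triangles are members within 500 bp of an IDR summit, which hold the most extreme ranks.

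A subset of members flanked IDR regions. The summits of 104 members lay within 500 bp of an IDR summit, 96 of them 220 bp or less away, and 102 members overlapped an IDR region. The nearest was 199 bp away. Of the 10 members strong in both replicates, the summits of Adk3, Fhos, CG10098, Pbp95, CG6805, mal, Mtp, CG7737 and CG7987 were 199 to 209 bp from an IDR summit, and that of ZnT86D was 1536 bp away. The members with the largest differences in rank were mostly of this kind too. Atf3, a transcription factor gene, had rank 24774 in replicate 2, with that summit 5 bp off, and rank 32 in replicate 3, with that summit 190 bp off. CG8043 had rank 388 in replicate 2, 150 bp off, and rank 28616 in replicate 3, 9 bp off. Both regions lay within 220 bp of an IDR summit, and in both the better rank belonged to the more distant replicate summit. COX8 stood apart from any IDR region by 16995 bp and had rank 1094 (signal 52.9) in replicate 2 and rank 29525 (13.9) in replicate 3.

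Member summits lay mainly upstream of the start. Of 1413 at a protein-coding start, 1074 were upstream, 76.0% (73.7 to 78.2%). The share was 86.7% (84.3 to 88.7%) at IDR promoter regions and 67.9% (65.2 to 70.5%) at lower-ranked promoter regions. The median member summit was 123 bp upstream (quartiles 8 and 248 bp), against 135 bp (69 and 232 bp) in the IDR set and 111 bp at lower-ranked ones. The medians were close, whereas the spread widened down the list. Within 250 bp upstream lay 51.3% of members, against 65.1% of IDR summits and 41.0% at lower-ranked ones. More than 250 bp downstream lay 9.84% of members, against 3.39% of IDR summits and 12.7% of lower-ranked ones. The upstream share was 79.9% at ranks 1608 to 2705 and 68.2% at ranks 4902 to 6000. The 337 downstream members had a median signal of 53.5, against 56.5 for the 1074 upstream ones, and 36.2% against 47.0% had a q value below 5%.

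**Figure D3:**
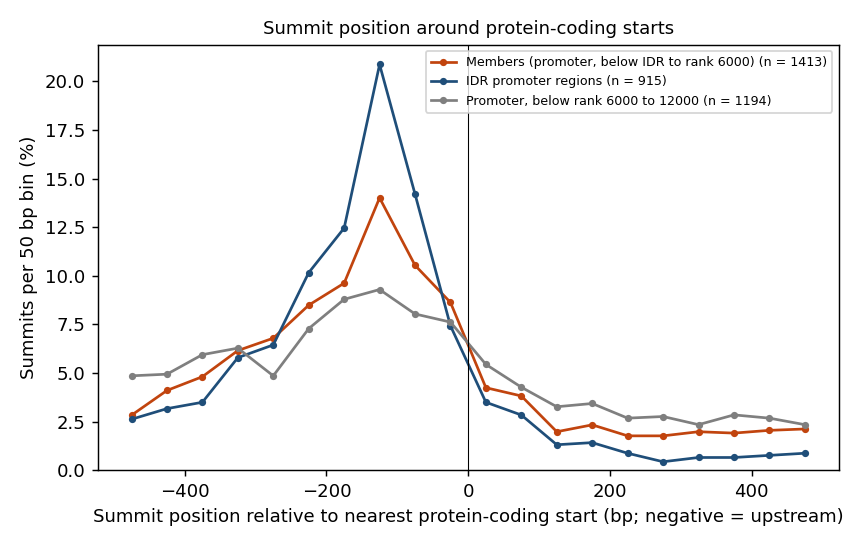
Summit position relative to the nearest protein-coding start (horizontal, bp, negative is upstream), as the share of summits per 50 bp bin (vertical, %), for 1413 members, IDR promoter regions and lower-ranked promoter regions. All 3 curves are highest 100 to 150 bp upstream, and the members' curve lies between the other two there.

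In the share with starts on both strands, members lay between the IDR promoter regions and the lower-ranked ones. The share over all annotated starts was not computed. Starts on both strands lay within 500 bp of 411 members, 26.7% (24.5 to 29.0%), against 41.1% in the IDR set and 14.9% at lower-ranked ones. The summit was between divergent starts at 353 members (22.9%), against 364 of 958 IDR promoter regions and 149 of 1373 lower-ranked ones (10.9%). Members with both strands had a median signal of 57.1 and those with 1 strand 54.9. The median summit was 93 bp upstream of the nearest protein-coding start with both strands, against 149 bp with 1 strand. Members with both strands have by definition several starts to be near, so a shorter distance is partly built in. A q value below 5% was reached by 49.4% of the members with both strands and 41.5% of the others. Examples are named with their gene groups below, such as Atg7 with Sec6 and su(Hw) with Polr2I.

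Of 13945 protein-coding genes, 1683 (12.1%) had a member summit within 500 bp of a start, against 1261 (9.04%) with an IDR summit and 1319 (9.46%) with a lower-ranked summit (below rank 6000 and down to 12000). Both a member and an IDR summit were found at 224 genes, 13.3% of the genes with a member and 17.8% of those with an IDR summit. The 13.3% is to be read beside the 9.04% of all protein-coding genes that had an IDR summit. Members flanking an IDR summit add to this overlap, because both summits can lie within 500 bp of the same start. The member summit was 207 bp from an IDR summit at Fhos and 203 bp at Got2, but 1828 bp at clu. The overlap without flanking members was not computed. More than 1 annotated start was present in 46.6% of genes with a member, 45.5% with an IDR summit and 26.5% of all protein-coding genes, and a gene with more starts has more places to be counted. Over 46 lists of 1401 genes, 182 genes (12.99%) had a member summit. The counts below are to be read against the 12.1% of all protein-coding genes. The lists and members were chosen with earlier results known, so no list was tested.

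Among genes of protein synthesis, the cytoplasmic ribosomal proteins had the highest share. Member summits lay at 22 of 93 genes for cytoplasmic ribosomal proteins, 23.7% (16.2 to 33.2%), and IDR summits at 25, so that 43 (46.2%) had at least 1 of them, against 19.5% of all protein-coding genes. RpLP2, of the ribosomal stalk, had a pooled signal of 77.2, with 23.6 in replicate 2 and 46.7 in replicate 3. RpS12, whose DRE is printed above, had 76.3 with 38.3 and 41.5, and its summit was 21 bp upstream. RpL27 had 72.6, with 53.3 in replicate 2 and 15.2 in replicate 3. The replicates thus differed more at RpL27 than at RpS12. At RpL34b (47.5), which also had an IDR summit at its promoter, the member summit was 320 bp upstream and 219 bp from the IDR summit, and at RpS14b near-identical tandem copies make the read placement uncertain. Translation factor genes had members at 8 of 53 (15.1%, 7.85 to 27.1%), led by the initiation factor gene eIF3m (77.4, with 38.9 in replicate 2 and 44.1 in replicate 3) and eIF2beta (74.8). Genes of tRNA synthetases had 2 of 33 (6.06%, 1.68 to 19.6%), AlaRS and AsnRS.

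For nuclear genes of mitochondria the shares were near that of all genes, within their intervals. Member summits lay at 12 of 73 genes for mitochondrial ribosomal proteins (16.4%, 9.66 to 26.6%) and at 11 of 86 genes for oxidative phosphorylation (12.8%, 7.29 to 21.5%). They also lay at 2 of 16 genes of mitochondrial import (12.5%, 3.50 to 36.0%). mRpS26 had the highest signal of its list at 71.0, with 55.3 in replicate 2 and 17.6 in replicate 3. COX4, a subunit of cytochrome c oxidase, had 73.3, with 22.5 in replicate 2 and 40.8 in replicate 3. The better rank was in replicate 2 at 8 of the 12 regions of the first list (66.7%, 39.1 to 86.2%). In the second list it was so at 10 of 12 (83.3%, 55.2 to 95.3%), against 54.6% of all members. COX4 and COX5A had the better rank in replicate 3. These counts are small, and other lists leaned the other way, such as translation factors, with the better rank in replicate 3 at 5 of 8 regions. ATPsynbeta and ND-49, both on chromosome 4, had pooled signals of 68.1 and 66.8, and the ND-49 region was shared with Ephrin, an axon guidance gene.

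Among genes of transcription and chromatin, insulator and architectural proteins had the highest share of the lists with 15 or more genes, at 8 of 16 (50%, 28.0 to 72.0%), with IDR summits at 5. BEAF-32, which binds the DRE, had 75.6, with 51.3 in replicate 2 and 32.6 in replicate 3. su(Hw), an insulator protein gene, had 70.3 (3R, 14308595 to 14309030) in a region shared with Polr2I, a subunit of RNA polymerase II, with 41.98 in replicate 2 and 30.3 in replicate 3. Dref, which encodes the other DRE factor, had 65.0 in a region shared with RpL13, with 23.6 in replicate 2 and 52.01 in replicate 3. It was one of the members flanking an IDR region, with an IDR summit of signal 117.99 at 205 bp. BEAF-32 also had an IDR summit at its promoter, 784 bp away. The same list held pzg (60.7), fs(1)h (57.4), Ibf1 and Ibf2, which share 1 region of signal 47.9, and M1BP (45.6). The genes of both DRE-binding factors and of the motif 1 factor thus had member summits. That of M1BP was weak, with a q value of 19.0% and ranks of 3357 in replicate 2 and 16962 in replicate 3. Members also lay at 6 of 19 Polycomb group genes (31.6%, 15.4 to 53.99%), which keep developmental genes silent: ph-d (65.8), pho (61.5), jing, Pcl, Scm and Kdm2. Mediator subunits, which link activators to polymerase, had 6 of 29 (20.7%), led by MED7 (75.3). RNA polymerase subunits had 5 of 30 (16.7%) and splicing factors 7 of 36 (19.4%), led by SmB (57.2, 199 bp from an IDR summit). The better rank was in replicate 2 at 6 of the 7 splicing factor regions (48.7 to 97.4%), against 54.6% of all members. It was in replicate 3 at 4 of 6 RNA polymerase regions. Trithorax and remodelling genes had 3 of 20 (15%, 5.24 to 36.0%), osa, Iswi and Utx, and general transcription factors 2 of 25 (8%, 2.22 to 24.97%), Brf and Taf13. Integrator subunits had 3 of 13 (23.1%).

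Signalling and developmental genes gave small counts with wide intervals. The list of ecdysone response nuclear receptors had members at 6 of 16 (37.5%, 18.5 to 61.4%). Hnf4, a regulator of lipid and carbohydrate metabolism, had 75.4, with 38.8 in replicate 2 and 36.6 in replicate 3, and was followed by ERR, another metabolic regulator (63.04), usp, the partner of the ecdysone receptor (49.4), Eip78C, Hr83 and EcR (47.8). Wnt pathway genes had 4 of 16 (25%). These were wls, needed for Wnt secretion (69.05, with 33.6 in replicate 2 and 34.2 in replicate 3), the receptor gene fz2 (62.3), the inhibitor gene nkd (61.8) and arm, the beta-catenin gene (61.8). IDR summits lay at 2 of the Wnt genes and lower-ranked summits at 7. Notch pathway genes had 3 of 11 (27.3%), N, mib1 and neur, the last 199 bp from an IDR summit, and the receptor gene N had 55.5. Muscle and mesoderm genes had 5 of 19 (26.3%), tin, Tm1, if, how and Mef2, and axon guidance genes 5 of 20 (25%), Ephrin, PlexB, fra, PlexA and Sema1a. Lower-ranked summits lay at 6 genes of each of these lists. Of the axon guidance genes, Ephrin, PlexB and PlexA lie on chromosome 4. In the NK class, to which Hmx belongs, the heart gene tin was the 1 of 12 with a member (3R, 21378523 to 21378958; pooled signal 58.997, with 25.5 in replicate 2 and 37.4 in replicate 3). The Hox genes Antp (60.8) and Abd-B (60.7) had members, 2 of 8, with IDR promoter summits at 0. Autophagy genes had 5 of 20 (25%), with Atg7, at 73.6, sharing its region with the exocyst gene Sec6. InR, the insulin receptor gene, had 69.1, with 45.9 in replicate 2 and 32.1 in replicate 3. In its list, insulin and TOR, 3 of 14 genes (21.4%) had members. Other lists lay nearer the share of all genes or below it: EGFR and Ras had 3 of 19 (15.8%), Hippo 2 of 12 (16.7%), JAK-STAT 1 of 8 (12.5%), Hedgehog 1 of 10 (10%) and BMP 1 of 16 (6.25%). Of the neural lists, glial genes had 3 of 12 (25%), proneural and neuroblast genes 2 of 19 (10.5%) and neuronal differentiation genes 2 of 20 (10%). Trachea and epithelium genes had 4 of 13 (30.8%).

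Some lists had few or no members. Chemoreceptors had 2 of 180 (1.11%, 0.305 to 3.96%), Ir25a (52.6) and Gr36c (46.0). Cuticle proteins had 1 of 110 (0.909%), TwdlG, odorant-binding proteins 2 of 51 (3.92%), and gap and pair-rule genes 0 of 15. Heat shock genes had 1 of 21, Hsc70-3, against 6 with an IDR summit. The plot of gene list shares sets these beside the IDR shares.

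**Figure D4:**
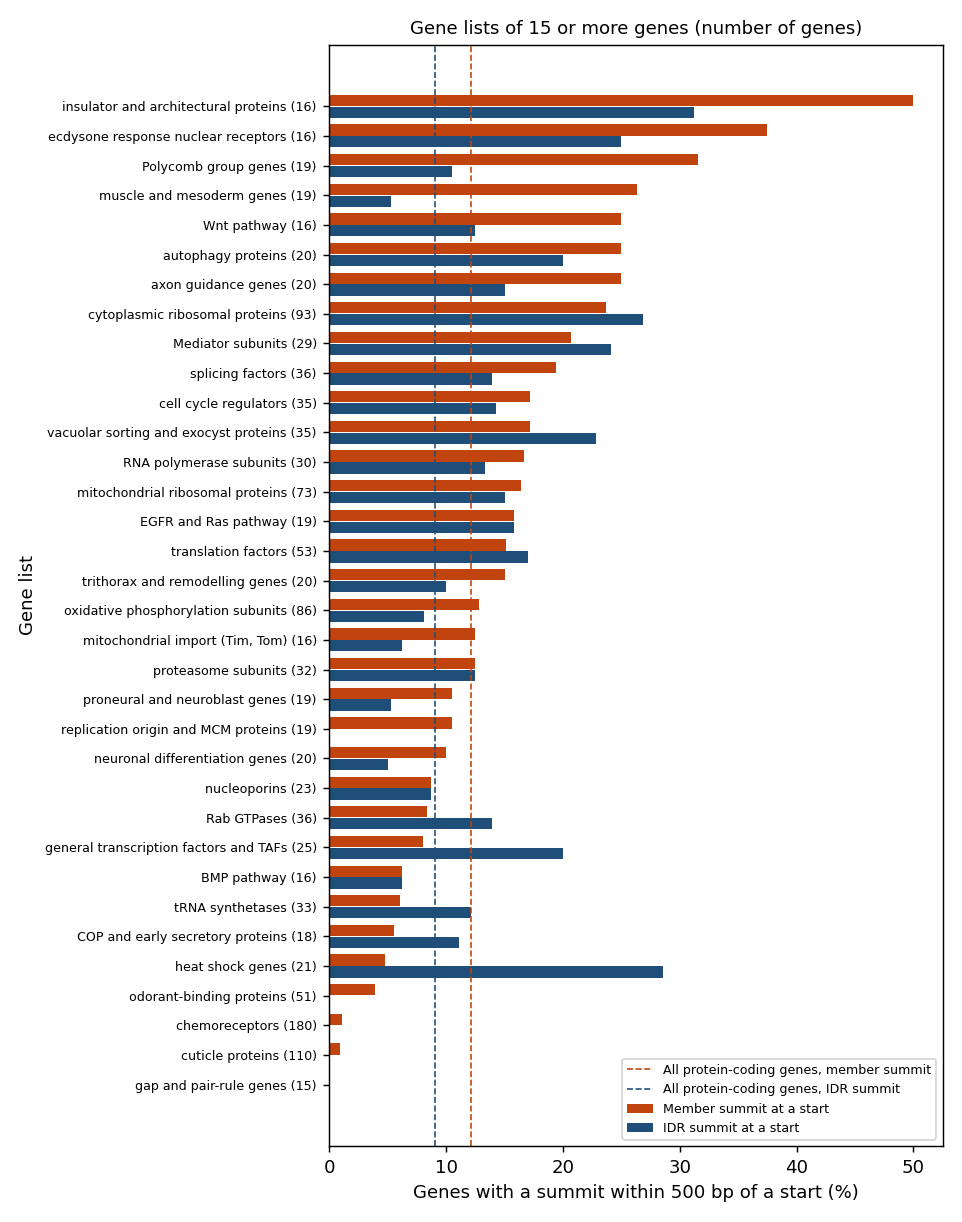
Genes with a member summit (orange, above) and an IDR summit (blue, below) within 500 bp of a start, in percent, for lists of 15 or more genes. Dashed lines give all protein-coding genes, 12.1% for members and 9.04% for IDR summits. Insulator and architectural proteins reach 50% and cuticle proteins 0.909% for members.

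Some genes had several member summits. Of 1916 genes of any type with a member summit, 130 had 2 or more and 12 had 3 or more. Some pairs were close together, as at gcl, with summits 244 and 45 bp upstream of a start. Whether such pairs are separate sites was not tested. SNF4Agamma, the gamma subunit gene of AMP-activated kinase, had 6. The strongest, at 73.5, was 496 bp upstream of a start and 215 bp from an IDR summit. Asator, a kinase gene on chromosome 4, had 4, at 77.3, 65.9 and 56.2 for the 3 strongest. Acsl, Pak, wake, bun, Hrb98DE, muc, Svil, Tm1, CG32264 and orb2 had 3 each. Of the genes with both classes, clu had a member of 78.0 and an IDR summit of 97.7, and mtd had 76.7 and 151.2. The members at Adk3 and pkaap were beside an IDR summit, at 205 bp for Adk3.

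The nearest start was that of a protein-coding gene at 1396 members (90.6%), of an ncRNA at 102, of a tRNA at 24 and of a snoRNA at 11. Most annotated genes are protein-coding too, 13945 of the 18164 with a start on the arms, so a high share is largely given by the annotation. By gene, member summits lay at 47 of 290 tRNA genes (16.2%), against 5 (1.72%) with an IDR summit and 39 (13.4%) at lower-ranked ones. For snoRNA genes the counts were 24 of 269 (8.92%), 2 and 42. These genes were thus met more often below the IDR set than in it. Many tRNA and snoRNA genes lie in clusters and in near-identical copies, so 1 summit can count for several genes and the placement of reads is uncertain. The strongest such member, with a signal of 78.1, lay at a snoRNA cluster with snoRNA:Me28S-A982b, with 30.9 in replicate 2 and 42.5 in replicate 3. The strongest at a tRNA gene lay at tRNA:Glu-TTC-1-4 (71.3), with 40.6 and 19.9. Chromosome 4 held 28 members (1.82%), against 2 IDR promoter regions (0.209%) and 34 lower-ranked ones (2.48%). The share of all annotated starts on chromosome 4 was not computed, so these shares cannot be called high or low.

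Member summits were rich in A and T. The summit with 50 bp on either side had 32.5% G+C, against 41.3% in flanks centred 300 bp away, and the summit was lower at 1220 members (79.2%). The difference was 8.79 percentage points at members, 13.1 at IDR promoter regions, 7.39 at lower-ranked promoter regions and 8.78 at other regions of ranks 1608 to 6000. All starts of protein-coding genes, taken at the members' median distance upstream, had 37.99%, and the arms 42.2%. The summit level was close in all classes, whereas the flanks of IDR promoter regions were higher, at 44.3%, as the plot of G+C by distance shows.

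**Figure D5:**
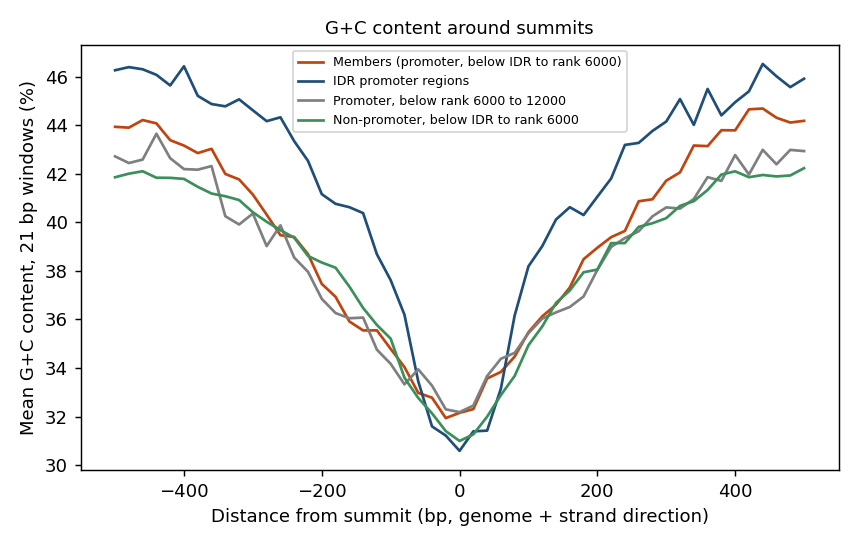
Mean G+C content in windows of 21 bp (vertical, %) by distance from the summit (horizontal, bp) for members, IDR promoter regions, lower-ranked promoter regions and non-promoter regions of ranks 1608 to 6000. All curves have their minimum at or near the summit, and the members' curve rises more slowly than that of the IDR promoter regions.

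The DRE and motif 1 core, printed above, were each in a small share of members. The DRE letters TATCGATA, searched on both strands, were in 47 member summits, 3.05% (2.30 to 4.03%), and in 1.14% of their flanks. At summits of IDR promoter regions the share was 1.98%, at lower-ranked ones 2.11%, at other regions of ranks 1608 to 6000 0.596%, and at all protein-coding starts 1.28%. The members' interval overlapped those of both other promoter classes. The windows of all starts were centred 123 bp upstream, farther than the median of 50 bp at which members with the DRE lay, so their share is not a like-for-like value. GGTCACAC was in 27 members (1.75%, 1.21 to 2.54%), with 1.59% in the flanks, and in 0.522% of IDR promoter regions and 0.867% of all starts. Members without the DRE lay at a median of 127 bp upstream, and 44.7% of members with it against 26.1% of those without had starts on both strands. Those with motif 1 lay 28 bp upstream.

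The homeodomain sites TAATTA and TAATTG were in more summits than flanks, as were other A+T-rich words. TAATTA was in 10.4% of member summits and 6.85% of flanks, against 8.89% at all starts and 10.96% of IDR promoter summits. TAATTG was in 12.2% of members and 8.51% of flanks. CAAGTG, the NK-2-like site, was in 6.10% of members and 6.56% of flanks, and TAAGTG in 6.49% and 4.74%. TATAAA (23.2% and 13.1%) and TTTAAA (24.2% and 11.4%), made only of A and T, also differed between summit and flank. GAGAGA, the site of GAGA factor, was in 3.12% of members and 5.13% of flanks, and the E-box CAGCTG in 4.29% and 5.23%. The differences in base composition between summit and flank bear on all of these shares, and their part was not tested.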

How the data were processed

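Hmx-eGFP ChIP-seq was analysed from region lists on dm6, which the authors deposited for replicate 2, for replicate 3 and for both pooled (30000 regions each), with an IDR set. The authors deposited for each region a signal value, whose scale depends on the caller, and a −log10 q value. Which caller, aligner and IDR cutoff were used is not given in the sources used here. The lists on dm3 were not used. Depth is unknown.

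From these files, members were found by rank, IDR status and distance to starts of Ensembl release 115 genes (annotation BDGP6.54). A replicate supported a member when its nearest summit lay within 250 bp. Shares have 95% Wilson intervals. The lists give 1 group, so no comparison was tested. G+C and motifs, on both strands, were read within 50 bp of the summit and in flanks centred 300 bp away, from the RefSeq genome. Counting steps were tested on simulated data. Python 3.11.15, numpy 2.4.6, pandas 2.3.3, scipy 1.17.1 and matplotlib 3.10.9 were used. Members and gene lists were chosen with earlier results of these data known, and 7 list symbols were matched under a current name. Spellings of list symbols were corrected once the annotation was read, and 5 symbols were not found. Named regions were the 25 strongest and 5 weakest members, those next to each threshold, the strongest at listed and at non-coding genes, genes with several members, members strong in both replicates or most unequal between them, and members at a gene with an IDR summit. Summits at the edge of the promoter window and members without replicate support were added after their values were seen.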

Additional observations from a re-analysis of the deposited data

How the results depend on the processing

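Over 13 alternatives, 8 results gave 76 values, of which 38 moved beyond their counting interval or by over 1.5 times and 38 did not. The G+C interval counts bases as if independent within a region. It is therefore too narrow, and small G+C shifts may be counted as moved. With a promoter window of 250 bp there were 1005 members, 78.4% upstream, a median position of -98 bp, 17.9% with starts on both strands, 33.0% G+C, 4.28% with the DRE and 7.69% of protein-coding genes. A window of 1000 bp gave 68.4% upstream, 30.9% with both strands and 15.99% of genes. The top 4000 regions gave 950 members, 79.0% upstream, 29.3% with both strands, 92.5% supported by both replicates and 7.92% of genes. The top 8000 gave 23.9% with both strands, 85.4% supported and 15.3% of genes. A q value below 5% left 672 members, 80.4% upstream, 30.2% with both strands, 93.3% supported, 32.3% G+C and 5.72% of genes. Members away from IDR regions had 32.2% G+C and covered 11.1% of genes. A replicate distance of 100 bp gave 71.4% support and 500 bp 91.6%. Windows of 25 and 100 bp either side gave 32.0% and 33.3% G+C and a DRE in 1.49% and 6.82%. With the list of 1 replicate in place of the pooled list, members numbered 1193 to 1728, with 72.0 to 75.4% upstream, a median of -122 to -110 bp, 22.1 to 29.6% with both strands, 32.7 to 32.8% G+C, 2.85 to 3.36% with the DRE and 8.95 to 13.6% of genes. In these runs on 1 replicate, regions overlapping an IDR region were removed. Several of the shifts above are built in. A wider promoter window takes in more starts and genes, and a longer list more genes. A longer replicate distance takes in more summits, and a longer sequence window more motif hits. The cause of the other shifts was not tested. Using starts of protein-coding genes only moved none of the results. The upstream share, median position and gene share were already based on those starts, so they could not change under this alternative. No paired analysis was possible because the 2 samples form 1 group. Unknown depth limits what weak regions can show.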
